A study of Homo sapiens with 45 samples.

Results

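BEGAIN encodes the brain-enriched guanylate kinase-associated protein, and it is described here as 1 gene of the 15698 genes with a row in the deposited expression table. Its row was found by matching its Ensembl identifier, ENSG00000183092, to its symbol. The gene was chosen by its measured log2 values, which were low in the libraries named KF_1, KF_38 and KF_13 and again in KF_21, KF_51 and KF_45, the 3 libraries with the lowest SAP130 values. Its levels are therefore a description and carry no test.

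The study silenced genes in HCT116-VR, a vorinostat-resistant line derived from the HCT116 human colorectal carcinoma line by culture in rising amounts of vorinostat, a histone deacetylase inhibitor. Cells were reverse transfected with 40 nM of an siRNA pool against BEGAIN, CCNK, CDK10, DPPA5, EIF3L, GLI1, JAK2, NFYA, POLR2D, PSMD13, RGS18, SAP130, TGM5 or TOX4, or received transfection lipid alone (mock), and were harvested after 48 h. All groups share the resistant line, and the labels give no vorinostat to these cells. Each of the 14 siRNA pools and the mock had 3 libraries from separate experiments, which made 45 libraries, each with one poly-A RNA profile.

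BEGAIN is known as a protein of the postsynaptic density, the protein-rich layer under the receiving side of an excitatory synapse. It binds the guanylate kinase domain of PSD-95 and its relatives, the scaffold proteins encoded by the DLG genes, which hold receptors and signalling enzymes in place. Scaffolds of this family also work outside neurons, at the contacts between epithelial cells. The gene lies on chromosome 14q32, next to the imprinted DLK1-MEG3 region.

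The 45 libraries held from 7569592 to 21149597 reads in genes, with a median of 11551126. A limit of 3 reads, which a count of 0 allows, corresponded to a log2 value between -2.50 and -1.07, depending on the library. Intervals and this limit cover counting error only. Among the 8 epithelial markers looked for, 6 had a row. EPCAM, a surface adhesion protein, was abundant, at 2459 to 9496 reads. CDX2 was the lowest of the markers with a row, at 143 to 404 reads and a median of 233. KRT20 and VIL1, markers of differentiated colon epithelium, had no row. Of 9 neuronal genes looked for, 5 had a row, among which SYP and SNAP25, proteins of the synaptic vesicle and its fusion machinery, had a median of 5 and 6 reads. TUBB3, MAP2 and SYT1, a tubulin, a microtubule protein and a vesicle calcium sensor, were higher, with medians of 44, 130 and 456 reads, and RBFOX3, STMN2, GAP43 and NEFL had no row.

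The sample list of the study gives each KF library a condition, and the targeted genes went against that list. For each of the 11 targets with a row, the 3 libraries lowest in the target would carry its siRNA if every silencing was seen and every name was right. Of these 33 places, 3 were filled by a library listed under that siRNA, and for BEGAIN the count was 0 of 3. The libraries lowest in BEGAIN were KF_21, listed as siDPPA5 replicate 2, KF_38, listed as siCDK10 replicate 3, and KF_1, listed as mock replicate 1. Conditions are therefore written below as listed names, and no condition was inferred from the values or from the order of the columns.

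In GRCh37, BEGAIN runs from position 101003484 to 101053754 of chromosome 14 on the minus strand, and it is annotated as protein coding. Its annotated exons merge into 14 regions that together cover 7882 bases. A gene on the opposite strand overlaps 3.46% of these exonic bases but has no row of its own, and the library kit does not mark strand, so reads from both genes cannot be told apart over that stretch. The sequence just before the annotated start is shown because it is the promoter-side sequence of the only gene described here, and because it is rich in G and C. The 250 bases upstream of the start, chr14:101053755-101054004 (GRCh37, minus strand, 5′ to 3′), read as follows, with each match to the GC box GGGCGG in capitals.
BEGAIN upstream: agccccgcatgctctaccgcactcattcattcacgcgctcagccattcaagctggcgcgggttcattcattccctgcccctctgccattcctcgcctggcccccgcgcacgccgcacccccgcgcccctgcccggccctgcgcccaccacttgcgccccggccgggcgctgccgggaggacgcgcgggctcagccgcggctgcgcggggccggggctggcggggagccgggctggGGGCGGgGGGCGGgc

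This stretch was 77.6% G and C, and it held 2 GC boxes, both within its last bases before the start. RefSeq (GRCh38.p14) gives 5 start windows of 300 bases for BEGAIN, some of which share bases, and 1 of them holds the same 250 bases. A GC box, searched on both strands, was present in 5 of the 5 windows, against 45.0% of the 35116 windows of all genes. The NF-Y box CCAAT was found in 0 of 5, against 34.6% of all windows, and the TATA box letters TATAAA in 0 of 5, against 11.5%. The median G and C content of all windows was 58.7%. That is over 300 bases per window, so it is not a like measure for the 77.6% of the 250 bases. A match to such letters is a description of the sequence and no evidence of binding.

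BEGAIN was a low transcript. It had 1072 reads over the 45 libraries in all, and from 3 to 58 reads per library with a median of 22. As a share of depth, this was 0.260 to 4.25 reads per 1000000 (RPM), with a median of 2.12, so that the highest library stood 16.3-fold above the lowest. On the deposited log2 scale the values ran from -1.66 to 1.98 with a median of 1.05, and the quartiles were 0.47 and 1.46. Of all genes, 19.3% had a lower median. In such bulk samples, fewer cells with the transcript and less of it per cell cannot be told apart.

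The SD of the log2 values over the 45 libraries was 0.93, where counting alone would give 0.36. This spread includes the low values by which the gene was chosen, so it is a description of BEGAIN and not a comparison with other genes. The log2 values of BEGAIN had a correlation of -0.067 with log2 depth over the 45 libraries.

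**Figure D1:**
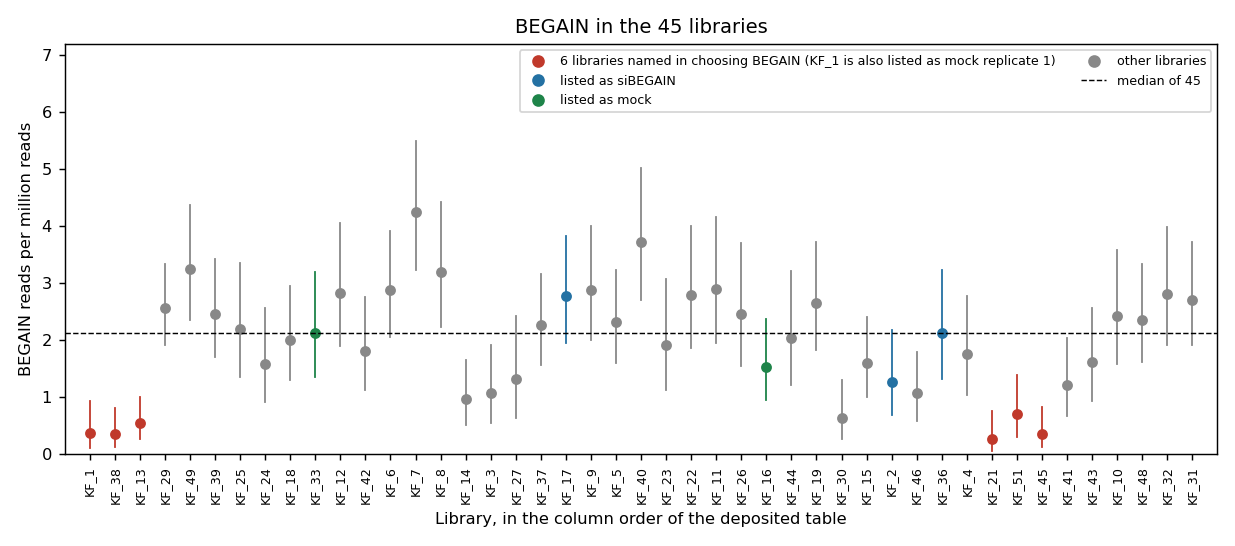
RPM of BEGAIN (vertical axis) in each of the 45 libraries, in the column order of the deposited table (horizontal axis), with 95% exact Poisson intervals as bars and the median as a dashed line. The 6 libraries named in choosing the gene lie between 0.260 and 0.704 RPM, and KF_30, which was not named, lies among them at 0.629.

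Of the 45 libraries, 7 had a log2 value below 0, 14 lay from 0 to below 1, and 24 were at 1 or above. The 6 libraries that chose the gene were among the 7 lowest. KF_21 was the lowest with 3 reads (95% exact Poisson interval 0.619 to 8.77), a log2 value of -1.66. KF_38 had 5 reads (1.62 to 11.7) and a log2 value of -1.44. KF_1 had 4 reads (1.09 to 10.2) and a log2 value of -1.31. In the deposited table, KF_1, KF_38 and KF_13 are the neighbouring columns 1, 2 and 3, and KF_21, KF_51 and KF_45 are the neighbouring columns 37, 38 and 39, while their listed names belong to 6 different conditions.

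KF_45, listed as siPSMD13 replicate 3, had 5 reads (1.62 to 11.7) and a log2 value of -1.26. KF_13, listed as siSAP130 replicate 1, had 10 reads (4.80 to 18.4) and a log2 value of -0.81. KF_51, listed as siTOX4 replicate 3, had 8 reads (3.45 to 15.8) and a log2 value of -0.37. Their intervals overlap each other and those of the lowest 3, so the order of these 6 libraries is not fixed at this depth.

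The choice left out 1 library that lies among those it named. KF_30, listed as siSAP130 replicate 2, was not named in it and had 7 reads (2.81 to 14.4) and a log2 value of -0.49, below the -0.37 of KF_51. The next library upwards was KF_14, listed as siTGM5 replicate 1, with 13 reads and a log2 value of 0.079. The widest step between neighbouring values was 0.450, between -1.26 and -0.81, with 4 libraries below it. Nearly as wide was the step of 0.445 from KF_51 at -0.37 to KF_14 at 0.079, which lies above the 7 lowest libraries, KF_30 among them.

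At the other end stood KF_7, listed as siGLI1 replicate 1, with 58 reads and a log2 value of 1.98. KF_40, listed as siEIF3L replicate 3, followed with 43 reads and 1.89. KF_49, listed as siTGM5 replicate 3, had 43 reads and 1.79. High and low libraries thus carried listed names of many conditions, and siTGM5 had one library in the lowest 8 and another in the highest 3.

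By listed condition, BEGAIN had its lowest mean log2 value under siSAP130, at -0.0096 ± 1.12 (SD, n = 3), and its highest under siEIF3L, at 1.60 ± 0.25 (SD, n = 3). The libraries listed as siSAP130 had 1189, 582 and 806 SAP130 reads for replicates 1, 2 and 3, which lie within the range of the libraries not low in SAP130, so the listed name does not mark a low SAP130. Between these the means of BEGAIN rose in the order mock (0.14), siCDK10 (0.25), siPSMD13 (0.25), siDPPA5 (0.33), siTOX4 (0.63), siCCNK (0.83), siBEGAIN (1.02), siRGS18 (1.04), siJAK2 (1.05), siGLI1 (1.09), siTGM5 (1.11), siNFYA (1.15) and siPOLR2D (1.18). Of the 14 pairs of neighbours in this order, 13 differed by less than the larger SD of the pair. The exception was siPOLR2D with siEIF3L, where the means lay 0.42 apart. Sorting by mean makes such steps small, so this count does not show whether listed conditions differ. The SD within a listed condition ran from 0.19 for siPOLR2D to 1.72 for siDPPA5, whose libraries included KF_21.

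The libraries listed as siBEGAIN did not stand low in BEGAIN. They had 13, 37 and 21 reads for replicates 1, 2 and 3, with log2 values of 0.47, 1.54 and 1.05. Those listed as mock had 4, 20 and 23 reads, with log2 values of -1.31, 0.60 and 1.15. The 2 listed groups overlapped, and the mean was 1.02 ± 0.53 (SD, n = 3) under siBEGAIN and 0.14 ± 1.29 (SD, n = 3) under mock. The difference of siBEGAIN minus mock was 0.87 with a standard error of 0.75 in a limma fit over all 45 libraries, so it lay toward more BEGAIN and was close to its error. Without mock replicate 1, which is KF_1, it was 0.15.

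Across the transcriptome, the listed siBEGAIN libraries were compared with the listed mock libraries to see which genes moved with the name. Of 15695 genes tested, 0 were called (0%), where a call needed a Benjamini-Hochberg adjusted p under 0.05 together with a log2 change no smaller than 1 in either direction. In limma 966 genes had an unadjusted p under 0.05, and the lowest adjusted p was 0.541. With voom weights on the recovered reads the count called was also 0, with 965 genes at an unadjusted p under 0.05. Leaving out siBEGAIN replicate 3 gave 1 call, the antisense RNA ANXA2R-AS1, lower under siBEGAIN with an adjusted p of 0.0115 in limma, and its reads cannot be told from those of the gene opposite it without strand. Because targets went against the list, this comparison describes listed names and does not measure a loss of BEGAIN.

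Postsynaptic scaffold genes showed the same lack of calls under the listed names. Of 20 postsynaptic scaffold genes, 15 had a row and were tested, and 0 were called. Their median log2 difference was 0.030, and that of all genes was 0.037. DLGAP2, DLGAP3, SHANK1, SHANK3 and LIN7B had no row.

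Per exon length, the scaffold genes fell into an abundant and a scarce part, with BEGAIN in the scarce one. BEGAIN had a median of 0.268 RPM per kb of exon (0.0330 to 0.539 over the libraries), and DLG4, which encodes PSD-95, had a median of 0.210. DLGAP5, which works at the mitotic spindle, had the highest median of the list, at 37.2. Other DLG genes were far more abundant than DLG4, with medians of 12.4 for DLG5, 6.88 for DLG3 and 6.55 for DLG1. DLG2, the neuronal PSD-93, was the lowest with 0.0157.

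**Figure D2:**
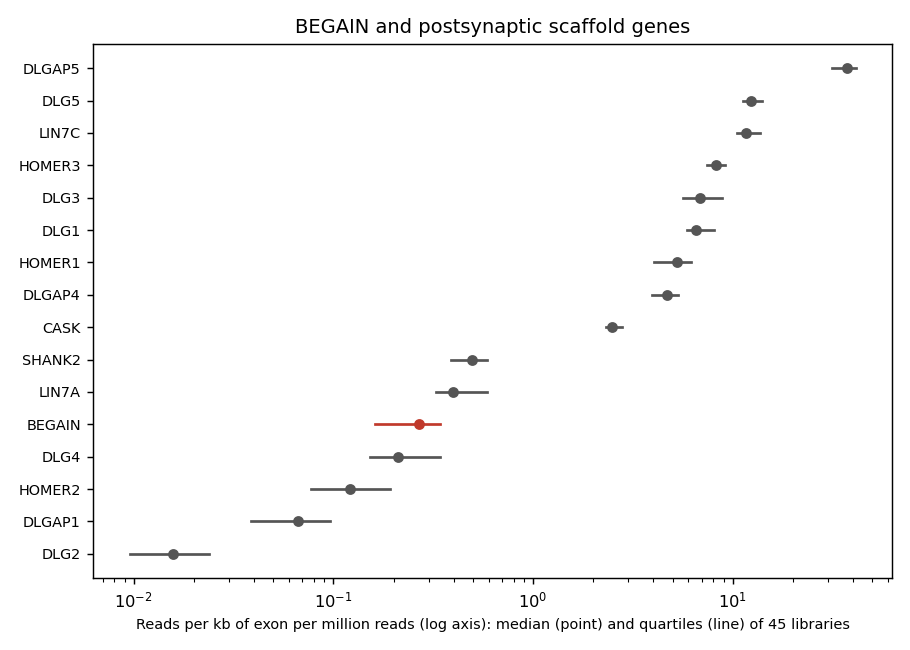
RPM per kb of exon on a log axis (horizontal) for BEGAIN and the 15 scaffold genes with a row (vertical), with points for medians and lines for quartiles over 45 libraries. BEGAIN, in red, lies at 0.268, next to DLG4 at 0.210 and below DLG1, DLG3 and DLG5 at 6.55 to 12.4.

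Over the 45 libraries, most scaffold genes had a positive correlation with BEGAIN. DLG2 and DLGAP1, with medians of 5 and 8 reads, were left out of this count, as were all genes with a median under 10 reads. Pearson's r was above 0 for 11 of the other 13, with a median of 0.31, where 7005 of the 14197 genes so filtered were above 0, with a median of -0.0051. Without KF_21, KF_51 and KF_45, the libraries that stand apart in SAP130, it was 11 of 13 with a median of 0.22. Of the 14197 genes, 7078 were then above 0, with a median of -0.00096. Without all 6 libraries that chose the gene, it was 11 of 13 with a median of 0.37. The count over all genes was then 7279 of 14197, with a median of 0.010. The highest was HOMER3, a scaffold that links receptors to calcium stores, with r = 0.52 and Spearman's rho = 0.46. DLG4 followed with r = 0.50 and rho = 0.51, and its r was 0.31 without the 3 libraries and 0.48 without the 6. HOMER1 (0.44), SHANK2 (0.43) and CASK (0.40) came next. The lowest were LIN7A (-0.16) and LIN7C (-0.15), adaptors that bind CASK. All these correlations are over libraries that share one table and its normalisation, and 2.96% of the 14197 genes reached an r of 0.5.

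DLG4 itself had 2 to 74 reads, with a median of 26 and a median log2 value of 1.17. In KF_21, KF_51 and KF_45 it had 4, 6 and 9 reads, with log2 values of -1.30, -0.75 and -0.47. In KF_1, KF_38 and KF_13 it had 14, 57 and 40 reads, with log2 values of 0.38, 1.94 and 1.14. PSD-95 transcripts were thus low beside BEGAIN in the first 3 libraries, while KF_38 and KF_30, with 33 reads, had much DLG4 and little BEGAIN. The lowest DLG4 value of all, 2 reads, was in KF_3, where BEGAIN had 11 reads. KF_14 and KF_27 had 6 and 5 DLG4 reads, with 13 and 10 BEGAIN reads. Low DLG4 was thus not particular to KF_21, KF_51 and KF_45.

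**Figure D3:**
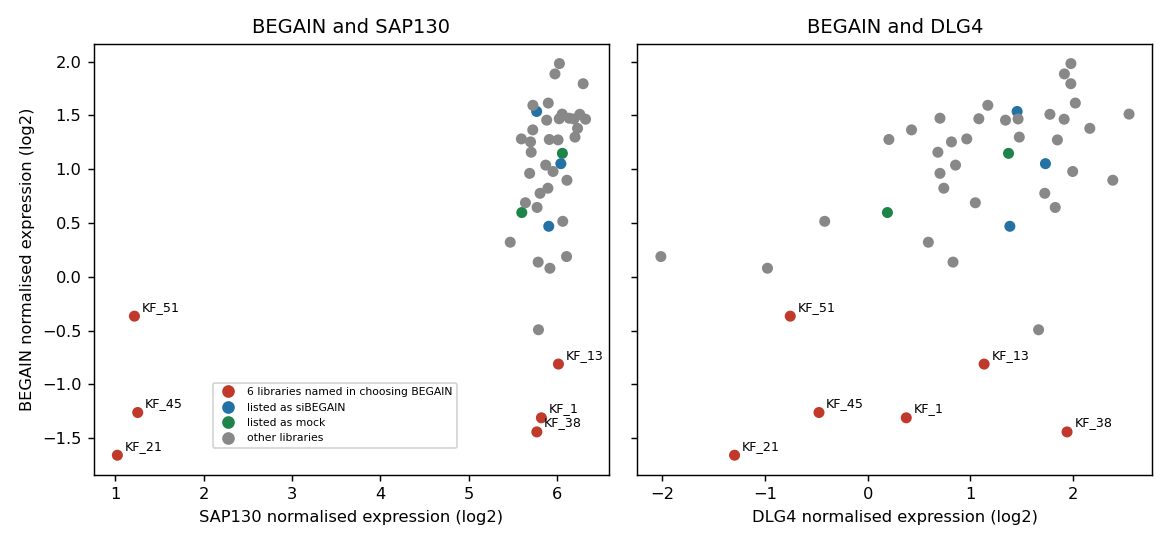
Log2 values of BEGAIN (vertical axes) against those of SAP130 (left) and DLG4 (right) on the horizontal axes, with 1 point per library. KF_21, KF_51 and KF_45 stand apart in SAP130 at 1.03 to 1.26, where the other 42 libraries lie from 5.47 to 6.32, and KF_1, KF_38 and KF_13 lie within those 42.

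SAP130, a subunit of the SIN3 histone deacetylase corepressor, was used in choosing the gene, and its values are given to show what the libraries share. KF_21, KF_51 and KF_45 had 22, 25 and 31 SAP130 reads, with log2 values of 1.03, 1.22 and 1.26. The other 42 libraries had 489 to 1576 reads. Among them were KF_1 with 630 reads (5.82), KF_38 with 814 (5.77) and KF_13 with 1189 (6.01), so BEGAIN was low in libraries with a low and in libraries with a usual SAP130. Since the libraries form separate clusters in SAP130, the relation was read within the 42, where r with BEGAIN was 0.30 and rho was 0.34.

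For the other siRNA targets with a row, r with BEGAIN over the 45 libraries ran from -0.35 to 0.19. It was 0.19 for GLI1, the hedgehog transcription factor, and 0.12 for PSMD13, a proteasome subunit. It was negative for the transcription factor subunit NFYA (-0.35), the translation initiation factor subunit EIF3L (-0.29), TOX4 (-0.24), CCNK (-0.17), JAK2 (-0.17), POLR2D (-0.09) and CDK10 (-0.07). By rank correlation it was -0.25 for PSMD13, -0.47 for TOX4 and -0.11 for NFYA. Without the 6 libraries that chose BEGAIN, r was 0.51 for GLI1, 0.40 for PSMD13, -0.03 for NFYA and -0.32 for EIF3L. These values include libraries very low in a target, such as EIF3L with a lowest log2 value of 2.79 against a median of 9.11. DPPA5, RGS18 and TGM5 had no row.

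The genes most like BEGAIN were named by the 10 highest values of r over the 45 libraries. They were PDS5A, a regulator of cohesin (r = 0.81), RERE, a nuclear corepressor (0.79), UBE2V2, a ubiquitin-conjugating enzyme variant (0.76), MAOB, the mitochondrial monoamine oxidase B (0.76), and CIB2, a calcium-binding protein (0.76). ENSG00000130723, which has no symbol in the tables used, DMXL2, MN1, the nuclear pore component NUP188 and DPYSL2, a cytoskeletal protein of growing axons, followed at 0.75, 0.74, 0.73, 0.72 and 0.72. The choice of genes used these same values of r, so they are a description. By rank correlation only 3 of these genes remained among the 10 highest. Values of rho were 0.83 for RERE, 0.76 for MAOB and 0.68 for PDS5A but 0.49 for DPYSL2. Without KF_21 and KF_38, the libraries farthest from the BEGAIN median, r was 0.75 for PDS5A, 0.76 for RERE, 0.74 for MAOB and 0.68 for DPYSL2. Without all 6 libraries that chose the gene, r over the other 39 was 0.72 for RERE, 0.67 for MAOB and 0.52 for PDS5A. It was 0.33 for UBE2V2, the lowest of the 10. The median of the 10 was then 0.54, while the highest r of any of the 14197 genes was 0.80.

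**Figure D4:**
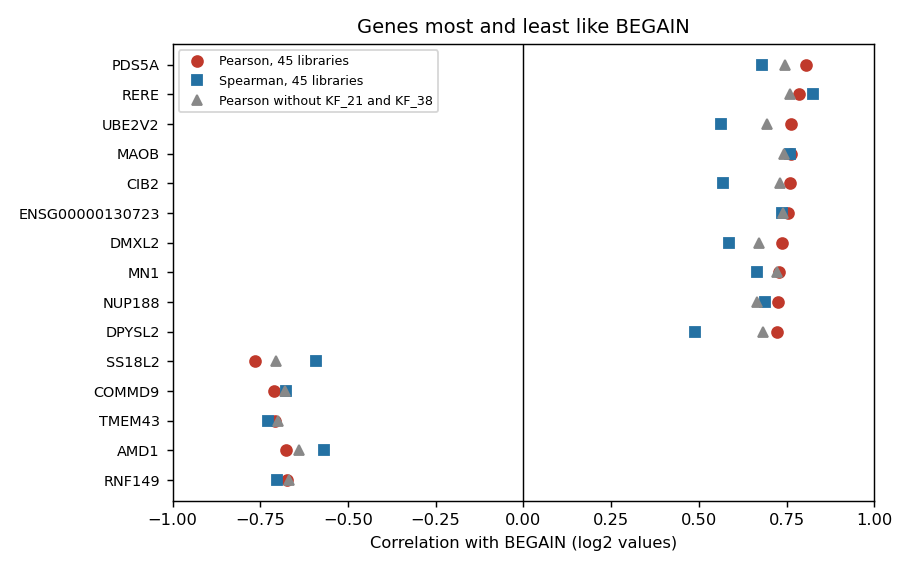
Correlation of each gene with BEGAIN over the log2 values (horizontal axis) for the 10 genes with the highest and the 5 with the lowest Pearson's r (vertical axis), with circles for Pearson, squares for Spearman and triangles for Pearson without KF_21 and KF_38. Squares lie closest to 0 for DPYSL2 at 0.49, and RERE has the highest square at 0.83.

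The leading genes were well covered and moved over a narrower range than BEGAIN. PDS5A had 2328 to 10316 reads, with log2 values from 7.77 to 9.04 and a median of 8.66. It was at 8.15, 8.08 and 8.23 in KF_1, KF_38 and KF_13, and at 7.79, 7.77 and 7.91 in KF_21, KF_51 and KF_45. RERE had 334 to 1256 reads and a median log2 value of 5.69, and it was at 5.24, 5.36 and 5.51 in the first of these sets and at 5.25, 5.50 and 5.29 in the other. Both genes lay below their own medians in each of the 6 libraries. They were named by an r that includes these libraries, so this position follows in part from the choice.

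MAOB, which breaks down monoamines, had a range closer to that of BEGAIN. It had 16 to 550 reads, and its log2 values ran from 0.49 to 5.07 with a median of 3.38. It was at 2.41, 2.53 and 2.80 in KF_1, KF_38 and KF_13, and at 0.74, 0.59 and 0.49 in KF_21, KF_51 and KF_45. DPYSL2 had its lower values in the first set instead, at 3.25, 3.67 and 3.78, and was at 4.48, 4.46 and 4.57 in the other, with a median of 5.65 over all libraries. MAOB and DPYSL2 were below their medians in all 6 libraries, which their choice by r favours, but differed in which of the sets was lower. Without the 6 libraries, r for DPYSL2 was 0.43.

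CIB2 had 30 to 205 reads and a median log2 value of 3.37. It was at 1.45, 2.52 and 2.40 in KF_1, KF_38 and KF_13, and at 2.07, 2.15 and 1.94 in KF_21, KF_51 and KF_45. MN1, a transcriptional coregulator, had 14 to 102 reads and a median log2 value of 2.13. It was at 1.25, 1.70 and 1.56 in the first set and at 0.66, 0.90 and 0.14 in the other. For both genes, the 6 values lay below the gene's own median, which the choice by r also favours.

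The 5 genes least like BEGAIN were SS18L2 (r = -0.77), COMMD9 (-0.71), TMEM43, an inner nuclear membrane protein (-0.71), AMD1, an enzyme of polyamine synthesis (-0.68), and RNF149, a ubiquitin ligase (-0.67). SS18L2 had a median log2 value of 4.12 and was at 4.83, 4.73 and 4.76 in KF_1, KF_38 and KF_13, and at 4.87, 4.86 and 4.86 in KF_21, KF_51 and KF_45. AMD1 had a median of 7.38 and was at 7.81, 7.57 and 7.60 in the first set and at 7.79, 7.61 and 7.76 in the other. Each gene lay above its own median in these libraries, which the choice by the lowest r favours. Without the 6 libraries, r for these 5 genes ran from -0.62 for TMEM43 to -0.37 for SS18L2. Of the 14197 genes, 420 had an r of 0.5 or more (2.96%) and 195 an r of -0.5 or less (1.37%).

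On chromosome 14q32, BEGAIN had measured neighbours on 1 side only within 1 Mb of its start. Of 14 neighbours looked for, 7 had a row, and DLK1, MEG3, RTL1, MEG8 and DIO3 of the imprinted region had none, nor had DEGS2 and SLC25A47. EVL, an actin regulator whose start lies at -616 kb from that of BEGAIN along the chromosome, had the highest r with BEGAIN among them, 0.52, with rho = 0.66, and 31 to 296 reads. Without the 6 libraries that chose BEGAIN, its r was 0.77. WDR25, which starts at -211 kb, had r = 0.17 (-0.098 without the 6 libraries). WARS1, a tRNA synthetase, had 0.15 (0.14 without the 6 libraries). YY1, a zinc finger transcription factor, had -0.44 (-0.24 without the 6 libraries). SLC25A29, a mitochondrial carrier, had -0.36 (0.18 without the 6 libraries). The remaining listed neighbours with a row lie beyond 1 Mb. PPP2R5C, a phosphatase subunit, had 0.16 (0.58 without the 6 libraries). DYNC1H1, the dynein heavy chain, had -0.29 (-0.49 without the 6 libraries). Measured genes within 1 Mb that were not on the list of neighbours were the microtubule-binding EML1 (r = 0.49, at -849.7 kb), CCDC85C (0.21, at -983.2 kb) and the processed pseudogene ENSG00000258581 (-0.12, at -220.8 kb). For EML1, CCDC85C and the pseudogene, r is given only over all 45 libraries, which include the 6 that chose BEGAIN. Over the 45 libraries, genes on this side of BEGAIN thus had values of r on both sides of 0.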

How the data were processed

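Gene expression was profiled in 45 libraries of HCT116-VR cells. As given by the methods and the submitters' processing notes, the authors processed reads with CASAVA 1.8.2, aligned them to GRCh37 with TopHat 1.4.1, counted reads per gene (HTSeq-count, Ensembl release 67) and deposited normalised log2 values (EdgeR, Limma-Voom). No column was left unmapped. Whole reads were recovered from the log2 values with 0.5 added (100% of values within 0.001 of a whole read). Exonic lengths came from GENCODE 44 mapped to GRCh37.

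Listed siBEGAIN and mock libraries were compared with limma 3.58.1 (R 4.3.3) with trend, in a fit over 45 libraries. Genes had to reach -1 on the log2 scale in 3 or more libraries, and a call needed an adjusted p under 0.05 with a log2 change no smaller than 1. The fit was tested on simulated data. Pearson correlation used genes with a median of at least 10 reads. Named genes were BEGAIN, the targets, the scaffold list, 14q32 neighbours, called genes, and the 10 genes most and 5 least like BEGAIN. BEGAIN and these lists were chosen with earlier results of these data known. A member of the scaffold list is not reported here, and the list's counts leave it out. Other filters, scalings, variance models, a replicate block and leaving out libraries were tried as alternatives. The labels call replicates independent experiments.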

Additional observations from a re-analysis of the deposited data

How the results depend on the processing

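No call was made in the listed comparison, of all genes or of scaffold genes, with the 6 libraries alone, the replicate block, no or a stricter filter, median-centred or quantile-normalised libraries, no trend, voom weights or adjusted p alone. Leaving out each library gave 0 to 1 call of all genes and 0 of scaffold genes. With the replicate block 0 genes were called and the BEGAIN difference was 0.87 as without it. The listed numbers were not used as pairs: same-numbered libraries had correlations of deviations of -0.037, 0.0012 and -0.131, but these rest on listed names that the targets went against, so they do not show whether the experiments pair. The BEGAIN difference was 0.80 to 0.92 under other scalings, 0.43 on log2 of reads per 1000000 (RPM) with 1 added, and 0.15 to 1.38 leaving out each library. Its median of 1.05 became 1.01, 1.07 and 1.64 under median-centring, quantile normalisation and the added 1, and its SD of 0.93 became 0.93, 0.86 and 0.52. Of the 10 genes most like BEGAIN, 3 remained among the 10 by Spearman correlation, 4 with quantile normalisation, 7 without KF_21 and KF_38, 8 with RPM with 1 added, 9 with a median of at least 100 reads and 10 with no filter. The correlation with SAP130 without its 3 lowest libraries, an alternative chosen after seeing the data, was 0.30. Leaving out these 3 or the 6 libraries that chose BEGAIN, also added after seeing the data, left 11 of 13 scaffold genes with a positive correlation. Of the 14197 genes, 7078 and 7279 then had a positive correlation. The cause was not tested. With a median of 22 reads, differences among the lowest libraries were not detectable at this depth.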

Other observations

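MAP2, a neuronal microtubule protein, had 8 to 378 reads over the 45 libraries and r = 0.02 with BEGAIN. SYT1, a synaptic vesicle calcium sensor, had 171 to 933 reads and r = -0.27. Without the 6 libraries that chose BEGAIN, r was 0.08 for MAP2 and -0.02 for SYT1.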
